A study of Mus musculus with 4 samples.

Results

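Of the 31253 genes measured, 10 were examined here, selected on the difference in their UMI levels between genotypes, which earlier results on these same cells had shown in several immune classes: Spint1, Hebp1, Emp1, Eps8, Gm34084, Zfp984, Pop4, 1600014C10Rik, Oser1 and AA467197. The question was whether each difference between WT and CaMKK2 KO mice was carried by every cell class or by some of them. Single-cell RNA-seq had been run on live CD45+ cells from tumor-bearing brain hemispheres of female C57Bl/6 mice aged 8 to 12 weeks, 14 days after 50000 CT2a glioma cells (a murine glioblastoma line) were implanted intracranially. The WT mice were purchased C57BL/6J animals and the CaMKK2 KO mice lacked Camkk2 in all tissues from the germline, and both groups carried the same tumor line. Each genotype comprised 4 mice, told apart by hashtag antibodies, and filled 1 channel, so that genotype and channel cannot be told apart. The CaMKK2 KO animals came from a separately kept line, so line of origin and genotype cannot be told apart either.

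The genes have no shared pathway. Spint1 encodes a membrane-anchored Kunitz-type inhibitor of trypsin-like proteases such as matriptase and hepatocyte growth factor activator, best known from epithelia. Hebp1 encodes a heme-binding protein whose amino-terminal peptide is a ligand of formyl peptide receptors. Emp1 encodes a small membrane protein of the PMP22 family, and Eps8 an actin-capping and actin-bundling protein that links growth factor receptors to Rac. Pop4 encodes a subunit of RNase P and RNase MRP, the ribonucleoproteins that process tRNA and rRNA precursors. 1600014C10Rik, the mouse counterpart of human C19orf12, encodes a membrane protein of mitochondria and endoplasmic reticulum, and AA467197, the counterpart of C15orf48, a small protein related to a subunit of respiratory complex IV. Oser1 is named for its induction by oxidative stress, Zfp984 belongs to a cluster of related zinc finger genes, and Gm34084 is a long noncoding RNA.

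The 10 genes lie on 5 chromosomes of the mm10 build, and several are close to each other. For all distances between genes, the start of a gene is its lower coordinate, whatever its strand. Spint1 is at chr2:119237362-119249527 on the plus strand, AA467197 at chr2:122636986-122641191 on the plus strand, 3.40 Mb from it, and Oser1 at chr2:163405822-163424697 on the minus strand. Hebp1 at chr6:135137522-135198022 on the minus strand and Emp1 at chr6:135362545-135383173 on the plus strand start 0.225 Mb apart, with Eps8 at chr6:137477245-137654876 on the minus strand. 1600014C10Rik at chr7:38183217-38197568 on the plus strand and Pop4 at chr7:38261996-38271423 on the minus strand start 0.0788 Mb apart. Zfp984 is at chr4:147753974-147809788 on the minus strand and Gm34084 at chr13:44472426-44504548 on the minus strand. Camkk2 itself is on chromosome 5, which carries none of the 10.

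RefSeq promoter sequences of the GRCm38.p6 reference, which is C57BL/6J and was not read from these mice, were matched for 9 of the 10 genes; Eps8 had no entry. The 250 bases before the annotated start are shown for 4 genes. Spint1 and Zfp984 are protein-coding genes that were near 0 in CaMKK2 KO TAM-like cells, and Pop4 and 1600014C10Rik are close neighbours that were both higher. Capitals mark matches, on either strand, to any of 3 motifs that can overlap each other. The GC box was searched as GGGCGG. The CCAAT box was searched by the letters of its name, and the cAMP response element was searched as its palindrome TGACGTCA. The first is chr2:119237110-119237359, the second chr4:147809789-147810038, the third chr7:38271349-38271598 and the last chr7:38182967-38183216.
Spint1: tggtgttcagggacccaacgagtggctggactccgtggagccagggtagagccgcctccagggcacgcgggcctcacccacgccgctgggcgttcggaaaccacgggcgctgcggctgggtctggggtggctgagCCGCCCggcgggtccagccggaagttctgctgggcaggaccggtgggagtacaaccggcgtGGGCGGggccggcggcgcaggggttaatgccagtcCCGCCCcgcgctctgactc
Zfp984: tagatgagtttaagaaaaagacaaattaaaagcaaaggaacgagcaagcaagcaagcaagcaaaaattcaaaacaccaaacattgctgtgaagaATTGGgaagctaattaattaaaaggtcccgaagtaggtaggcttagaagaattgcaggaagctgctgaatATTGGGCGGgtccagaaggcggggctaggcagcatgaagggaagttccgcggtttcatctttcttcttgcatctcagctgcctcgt
Pop4: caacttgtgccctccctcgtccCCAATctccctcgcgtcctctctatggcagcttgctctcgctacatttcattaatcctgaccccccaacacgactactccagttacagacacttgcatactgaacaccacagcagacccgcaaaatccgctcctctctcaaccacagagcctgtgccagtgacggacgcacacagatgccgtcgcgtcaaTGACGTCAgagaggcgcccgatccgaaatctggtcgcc
1600014C10Rik: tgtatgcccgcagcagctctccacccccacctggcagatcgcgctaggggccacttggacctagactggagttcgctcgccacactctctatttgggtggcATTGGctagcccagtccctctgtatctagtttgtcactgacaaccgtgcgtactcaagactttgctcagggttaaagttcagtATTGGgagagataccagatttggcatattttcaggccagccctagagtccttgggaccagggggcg
The Spint1 stretch held 3 GC boxes, and that of Zfp984 a GC box overlapping the second of 2 CCAAT boxes. Pop4 had a CCAAT box and a cAMP response element, whereas the first of the 2 annotated starts of 1600014C10Rik had 2 CCAAT boxes. Among the 32851 promoter stretches of this length, 32.7% held a GC box, 33.8% a CCAAT box and 1.55% a cAMP response element. Pop4 and 1600014C10Rik thus shared the CCAAT letters with each other and with Zfp984, which differed in the opposite direction.

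After removal of doublets and outlying cells, 5047 WT and 5632 CaMKK2 KO cells remained. Cells were put in a class by the share of that class's marker genes they expressed, a rule that placed 4507 and 4953 of them. In all, 7 classes had at least 10 cells in each mouse: TAM-like (tumor-associated macrophage-like, 1599 WT and 1253 CaMKK2 KO cells), microglia-like (299 and 111), cMono-like (classical monocyte-like, 682 and 1265), DC2-like (conventional type 2 dendritic cell-like, 269 and 117), T-like (683 and 905), NK-like (523 and 745) and B-like (169 and 196). Levels are given in CPM, which is UMIs (counted RNA molecules) of a gene scaled to the total UMIs of that class in that mouse. UMIs over all kept cells of a mouse ranged from 11890210 to 20360454, and as few as 59244 lay behind 1 mouse in B-like cells. CPM values compare a gene between classes and mice. Between-genotype values of the 10 genes describe the contrast by which they were chosen and carry no test.

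Camkk2, the deleted gene, was checked first. Over all cells the WT mean was 30.9 ± 5.28 CPM (SD, n = 4), with mice from 27.7 to 38.8, and the CaMKK2 KO mean 17.3 ± 4.24 CPM, with mice from 13.3 to 22.8. All WT mice were above all CaMKK2 KO mice (p = 0.0286 by an exact permutation test, two-sided, the smallest that 4 against 4 mice can give). By class, the mice stood apart in TAM-like cells (22.9 to 29.4 CPM in WT, 11.1 to 15.6 CPM in CaMKK2 KO). Microglia-like and cMono-like cells were also apart. The mice overlapped in T-like cells (7.64 to 16.6 and 3.34 to 11.0 CPM) and in NK-like, B-like and DC2-like cells. The 3' reads of Camkk2 were reduced rather than absent, and where they lie relative to the deletion was not tested.

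Genotype separated the mice most completely for Spint1, in each of the 4 myeloid classes with enough cells. In TAM-like cells the 4 WT mice had 120, 162, 153 and 125 CPM, from 3742 UMIs, and the CaMKK2 KO mice had 0 UMIs. Against 3 counts over the group, WT was at least 963-fold higher. In microglia-like cells WT mice had 226, 264, 194 and 152 CPM, again against 0 UMIs, at least 117-fold higher. Both macrophage classes therefore had this protease inhibitor transcript in every WT mouse and in no CaMKK2 KO mouse. In cMono-like cells WT stood at 223 ± 56.3 CPM (SD, n = 4) and the CaMKK2 KO mice had 1 UMI in all, and in DC2-like cells it was 278 ± 35.0 against 2.84 ± 4.28 CPM, where 7 UMIs came from mice 2 and 3. The log2 ratio of mean CPM + 1 in DC2-like cells was -6.18, and -7.30 without CaMKK2 KO mouse 2. In T-like cells Spint1 was low in both genotypes, at 4.62 ± 1.36 and 2.17 ± 0.910 CPM, from 28 and 20 UMIs.

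Gm34084 had the same myeloid distribution, though on few UMIs in microglia-like cells. WT mice had 26.6, 53.1, 47.1 and 51.1 CPM in TAM-like cells and CaMKK2 KO mice 0.286, 0.858, 0.277 and 0.842 CPM, a ratio of means of 78.6. It was 67.8 in cMono-like and 105 in DC2-like cells, the last with 1 UMI in CaMKK2 KO mice. No mouse overlapped in these 3 classes. In microglia-like cells the mice did not overlap either, but there were only 10 WT UMIs of this RNA and 0 in CaMKK2 KO mice.

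Eps8, the actin regulator, was also lower in CaMKK2 KO mice, by amounts that depended on the class. In TAM-like cells WT mice had 129, 96.0, 79.5 and 76.6 CPM and CaMKK2 KO mice 9.01, 4.50, 8.30 and 2.95 CPM. The means differed 15.4-fold in TAM-like, 22.0-fold in cMono-like and 4.20-fold in DC2-like cells, with no overlap in any of them. In microglia-like cells, by contrast, Eps8 had means of 22.2 ± 10.7 CPM for WT and 19.4 ± 14.7 CPM for CaMKK2 KO mice (SD, n = 4), and the groups overlapped, on 112 and 33 UMIs.

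Zfp984 was lower in CaMKK2 KO mice by amounts that depended on the class. In WT its mean lay between 10.1 CPM in B-like and 21.3 CPM in TAM-like cells. The CaMKK2 KO mice had 0.715, 1.07, 0.830 and 0 CPM in TAM-like cells, against 17.9, 18.6, 25.4 and 23.5 CPM in WT, a 32.6-fold difference of means. In T-like cells they kept 5.82, 9.72, 10.0 and 5.48 CPM against 13.3, 15.7, 19.8 and 19.7 CPM in WT, 2.20-fold lower. Both pairs of groups stood apart, the myeloid one far more widely. The gene has related copies nearby and overlaps Gm20707 on the same strand, so how reads were divided among them is uncertain. In TAM-like cells Gm20707 itself averaged 8.03 ± 1.10 CPM for WT and 0.761 ± 0.274 CPM for CaMKK2 KO mice.

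AA467197 was lower in CaMKK2 KO mice in each class with at least 200 UMIs of it except T-like cells. In cMono-like cells the WT mice had 576, 696, 702 and 364 CPM and the CaMKK2 KO mice 77.4, 116, 33.1 and 79.2 CPM, a 7.65-fold difference of means. NK-like cells had 363, 311, 205 and 195 CPM in WT and 65.3, 91.6, 150 and 31.2 CPM in CaMKK2 KO mice. T-like cells had 117, 184, 128 and 109 CPM and 142, 134, 110 and 92.2 CPM, respectively. The groups were thus apart in NK-like cells and interleaved in T-like cells, on 950 and 1170 UMIs.

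1600014C10Rik was the gene most uniformly related to genotype: CaMKK2 KO mice were above all WT mice in each of the 7 classes. In TAM-like cells the WT mice had 45.4, 86.2, 57.1 and 61.5 CPM and the CaMKK2 KO mice 349, 393, 186 and 509 CPM. In T-like cells the values were 23.3, 33.8, 37.7 and 30.4 CPM and 140, 94.7, 125 and 139 CPM. The ratio of means was 5.74 in TAM-like, 4.93 in cMono-like, 3.99 in T-like, 2.23 in NK-like, 2.16 in microglia-like and 1.68 in DC2-like cells. B-like cells had 15.8 ± 14.1 and 79.7 ± 46.5 CPM (SD, n = 4), on 10 and 96 UMIs.

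Pop4, its neighbour, was higher in CaMKK2 KO mice with a more uneven size. In cMono-like cells WT mice had 18.5, 18.0, 27.5 and 23.0 CPM and CaMKK2 KO mice 217, 215, 137 and 203 CPM, 8.87-fold by the means. The ratio was 3.92 in TAM-like, 1.81 in T-like and 1.72 in NK-like cells, all without overlap, and 1.51 in DC2-like cells, where the groups overlapped. CaMKK2 KO mouse 3 was the lowest of its group for Pop4 and 1600014C10Rik in both TAM-like and cMono-like cells.

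Oser1 was higher in CaMKK2 KO mice in each class except B-like cells. In TAM-like cells the WT mice had 38.2, 37.5, 38.5 and 41.3 CPM and the CaMKK2 KO mice 58.2, 54.3, 54.5 and 54.3 CPM, a ratio of 1.42. In microglia-like cells they had 39.3, 45.3, 40.6 and 64.7 CPM and 225, 340, 181 and 151 CPM, a ratio of 4.72. T-like, NK-like, cMono-like and DC2-like cells lay between, at 1.85, 1.54, 2.30 and 2.36. B-like cells stood at 39.4 ± 6.27 and 43.8 ± 13.9 CPM (SD, n = 4) and overlapped.

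Emp1 was the gene with the larger ratio in lymphocytes. T-like cells had 6.66, 7.34, 7.19 and 9.41 CPM in WT and 46.2, 86.2, 41.7 and 63.0 CPM in CaMKK2 KO mice, 7.75-fold by the means, and NK-like cells differed 5.02-fold. In TAM-like cells the WT mice had 105, 73.6, 42.2 and 34.1 CPM and the CaMKK2 KO mice 92.4, 174, 68.7 and 122 CPM, so that the groups overlapped. cMono-like cells had 124 ± 38.2 and 460 ± 98.2 CPM (SD, n = 4), without overlap. In microglia-like cells Emp1 was near the floor, on 38 WT and 3 CaMKK2 KO UMIs.

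Hebp1 was a macrophage gene in WT mice and was more widely present in CaMKK2 KO mice. In TAM-like cells WT mice had 90.0, 62.3, 53.1 and 59.8 CPM and CaMKK2 KO mice 207, 210, 281 and 181 CPM. In cMono-like cells the values were 26.7, 7.14, 7.85 and 10.7 CPM and 177, 168, 233 and 168 CPM, 14.3-fold by the means against 3.32-fold in TAM-like and 2.91-fold in microglia-like cells. DC2-like cells had only 12 and 58 UMIs.

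**Figure D1:**
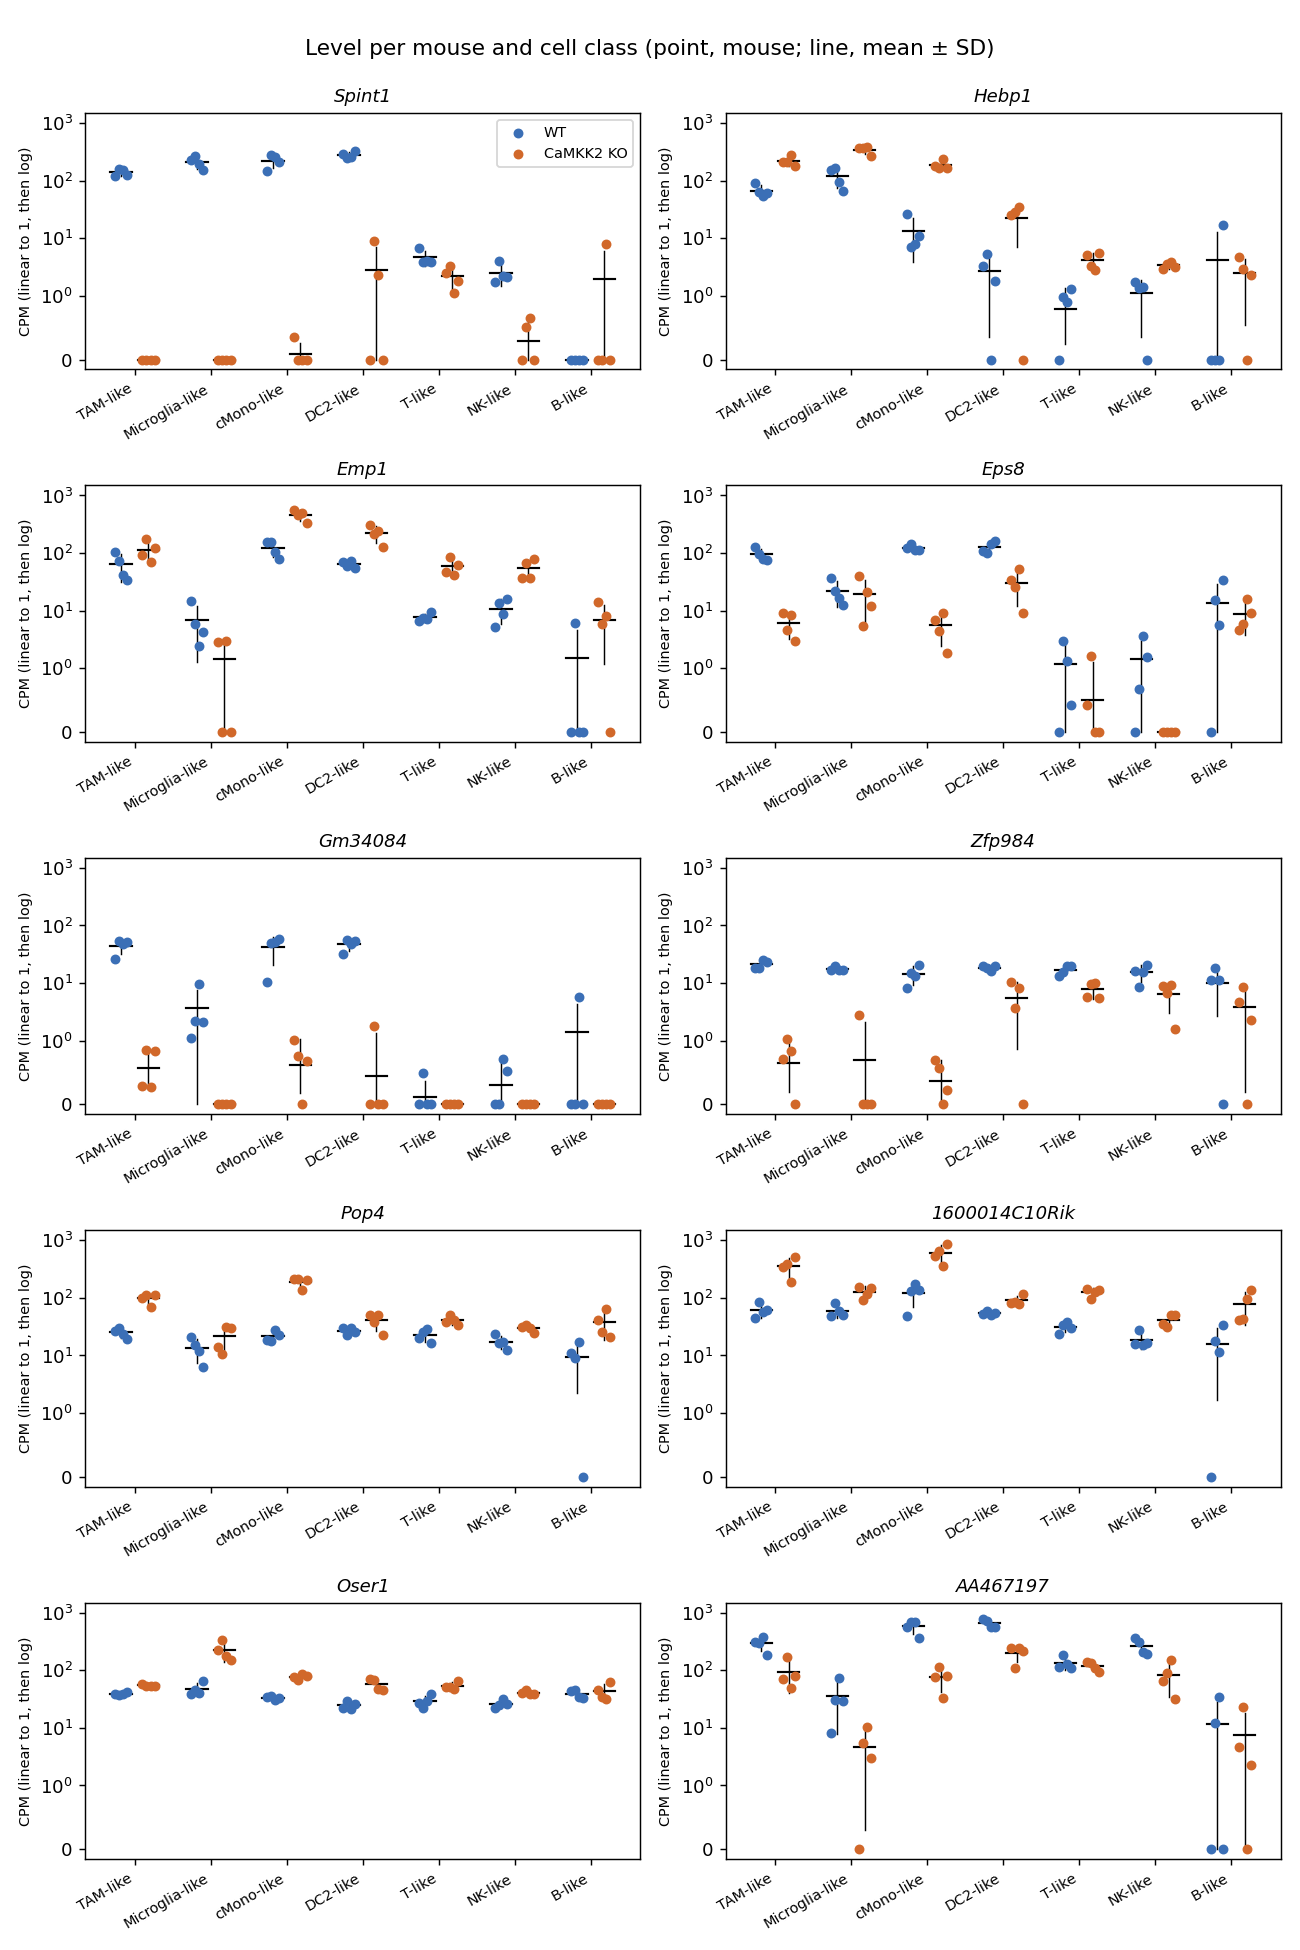
Level of each gene in CPM (linear to 1, then log) by cell class. Each point is a mouse, blue for WT and orange for CaMKK2 KO, and black lines give the mean ± SD of 4 mice, with the SD drawn no lower than 0. Spint1 is at 0 in all 4 CaMKK2 KO mice in TAM-like and microglia-like cells, and 1600014C10Rik is above WT in all 7 classes.

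Counted over the 10 genes, separation of the mice varied by class. Of the genes with at least 200 UMIs in a class, 9 of 10 did not overlap in TAM-like cells, where 14.3% of all genes tested did not. The count was 9 of 9 in cMono-like (10.2% of all genes), 7 of 8 in DC2-like (10.6%), 4 of 4 in microglia-like (9.37%), 5 of 6 in T-like (12.1%) and 5 of 5 in NK-like cells (11.0%). No member reached 200 UMIs in B-like cells, where 13.5% of all genes did not overlap. These counts restate the choice of the genes. Without the depth limit, 1600014C10Rik alone among the 10 separated the mice in one direction in all 7 classes. Spint1 and Oser1 did so in 6, Zfp984, Hebp1 and Pop4 in 5, Emp1, Gm34084 and AA467197 in 4, and Eps8 in 3, so the name of a genotype-wide pattern fits only part of the set. Some of these classes held few UMIs. Those of Spint1 take in T-like (28 WT and 20 CaMKK2 KO UMIs) and NK-like cells (15 and 3). Those of Hebp1 take in T-like (7 and 36) and NK-like cells (6 and 25). Those of Gm34084 take in microglia-like cells (10 and 0). With free RNA from myeloid cells (described below) subtracted, the counts of genes at 200 UMIs or more stayed the same in every class. Its part in the sparser classes named here was not tested.

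**Figure D2:**
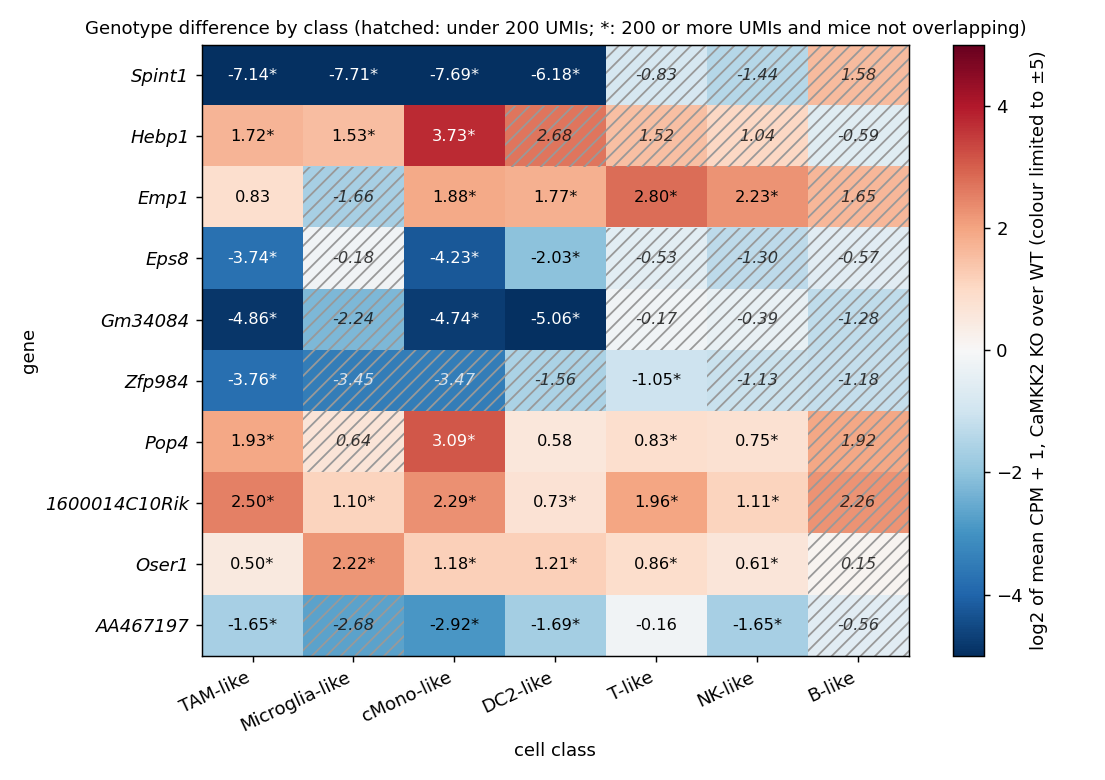
Log2 of the ratio of mean CPM + 1 in CaMKK2 KO over WT mice for each gene and cell class, with colour limited to ±5. Hatched cells had under 200 UMIs, and stars mark pairs with at least 200 UMIs whose mice did not overlap, such as -7.14 for Spint1 in TAM-like and 2.80 for Emp1 in T-like cells.

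The size of the genotype difference in T-like and TAM-like cells was set side by side as the difference of their fitted log2 fold changes (T-like minus TAM-like, edgeR, with mouse as a term, SE). Since the genes were chosen on these same genotype differences, the values describe the choice and carry no test. The difference was 3.65 ± 0.392 for Zfp984, whose CaMKK2 KO level was much nearer to WT in T-like cells. It was 1.84 ± 0.424 for Emp1, 1.52 ± 0.426 for AA467197 and 0.34 ± 0.211 for Oser1. Pop4 (-1.15 ± 0.254) and 1600014C10Rik (-0.46 ± 0.298), both higher in CaMKK2 KO mice, had the smaller fold change in T-like cells. The other 4 genes had under 50 UMIs in T-like cells and are given no value.

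Clusters of cells, made without the 10 genes and their surroundings, were split unevenly by genotype. The largest held 143 WT and 2253 CaMKK2 KO cells and had Ly6i, Cxcl9 and Ifi202b as leading genes. Another, led by Gpnmb and Spp1, held 1048 and 135. Gm34084, though not used to make the clusters, was among the 10 leading genes of that cluster. One led by Chil3 and Ace held 579 and 287. The gates for TAM-like and cMono-like cells therefore drew on different clusters in the 2 genotypes, and the part of this in the values of those classes was not tested. When classes were taken from the clusters with a name instead, some log2 ratios of mean CPM + 1 moved by over 1.5-fold without a change of direction. In TAM-like cells Eps8 went from -3.74 to -2.91, Zfp984 from -3.76 to -3.05 and Pop4 from 1.93 to 1.24. In cMono-like cells Eps8 went from -4.23 to -5.37, Gm34084 from -4.74 to -6.08 and Oser1 from 1.18 to 1.87, and in microglia-like cells Spint1 went from -7.71 to -6.79.

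Levels of these genes in lymphoid and myeloid classes were also compared within a genotype. Within WT mice, T-like, NK-like and B-like cells were compared with the 4 myeloid classes (edgeR, adjusted over 10024 genes). In all, 8 of the 10 genes were called lower in the lymphoid classes, where 30.6% of all genes were. Of these calls, those of Spint1, Gm34084, Eps8, Hebp1 and Emp1 follow from the count filter described next. A gene entered with 200 WT UMIs over the 7 classes, so the myeloid classes alone could let it in. The fewest UMIs in T-like, NK-like and B-like cells were in Spint1 (28, 15 and 0), Gm34084 (1, 2 and 1), Eps8 (10, 9 and 8) and Hebp1 (7, 6 and 1). Emp1 (55, 69 and 2) also stayed under 200 UMIs over these lymphoid classes together. For these genes the call and its size follow from that filter and do not measure a lymphoid level. Their log2 differences are therefore not given. The log2 difference was -1.83 ± 0.164 (SE) for 1600014C10Rik, -1.54 ± 0.227 for AA467197 and -0.44 ± 0.187 for Pop4 (adjusted p = 0.0400). Pop4 lost its call without WT mouse 1, 2 or 4 (adjusted p = 0.0992, 0.147 and 0.131). Zfp984 (-0.21 ± 0.175, adjusted p = 0.326) and Oser1 (-0.13 ± 0.114, adjusted p = 0.426) did not pass. Spint1, Gm34084 and Zfp984 were too sparse to be tested in CaMKK2 KO mice, where 27.3% of all genes were called lower in lymphoid classes. The log2 difference within CaMKK2 KO mice was -0.87 ± 0.112 for Oser1 and -0.24 ± 0.446 for AA467197. Set beside the WT values, these restate the genotype differences by which the genes were chosen and carry no test. Mean Oser1 in WT and CaMKK2 KO mice was 29.3 and 54.2 CPM in T-like and 47.5 and 224 CPM in microglia-like cells. Mean AA467197 was 585 and 76.4 CPM in cMono-like cells, in the same order. Non-classical monocytes were left out of this test because too few cells were found.

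The order of classes in WT differed between the genes, although neighbours in it often overlapped. Spint1 ran from DC2-like (278 CPM) through cMono-like, microglia-like and TAM-like (140 CPM) to T-like cells, and only the step from TAM-like to T-like and that from NK-like to B-like separated all mice. Hebp1 was highest in microglia-like (119 ± 45.4 CPM) and TAM-like cells (66.3 ± 16.3 CPM), which overlapped, and both stood clear of cMono-like cells. Emp1 was highest in cMono-like cells, above DC2-like cells in every mouse. AA467197 reached 657 ± 107 CPM in DC2-like and 585 ± 158 CPM in cMono-like cells, and NK-like cells (268 ± 82.0 CPM) were above T-like cells (134 ± 34.0 CPM) in every mouse.

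Free RNA limits what the low lymphoid values can show. C1qa, C1qb and C1qc, complement genes of macrophages, appeared in WT T-like cells at 1.10% and in NK-like cells at 0.872% of their TAM-like level. At that share 5.03 Hebp1 UMIs would be found in WT T-like cells, where 7 were observed, 7.22 of Eps8, where 10 were, and 3.37 of Gm34084, where 1 was. These 3 genes were therefore at about the free RNA level in WT T-like cells, and those values are read as background. Eps8 was above it elsewhere, on few UMIs: 5 were observed and 0.709 came out at the C1q share in CaMKK2 KO T-like cells, and in B-like cells 8 and 1.11 in WT and 9 and 0.0695 in CaMKK2 KO mice. In CaMKK2 KO T-like cells 36 Hebp1 UMIs were seen and 25.2 came out at the C1q share. Emp1 was well above it, with 55 UMIs observed and 4.84 at the C1q share in WT, and 543 and 13.1 in CaMKK2 KO T-like cells. Zfp984, Pop4, 1600014C10Rik, Oser1 and AA467197 in WT T-like cells stood at 45.5 to 89.7% of their TAM-like level. Spint1 was in between, with 28 UMIs in WT T-like cells and 10.6 at the C1q share, and the 20 UMIs of CaMKK2 KO T-like cells had no TAM-like level to come from.

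**Figure D3:**
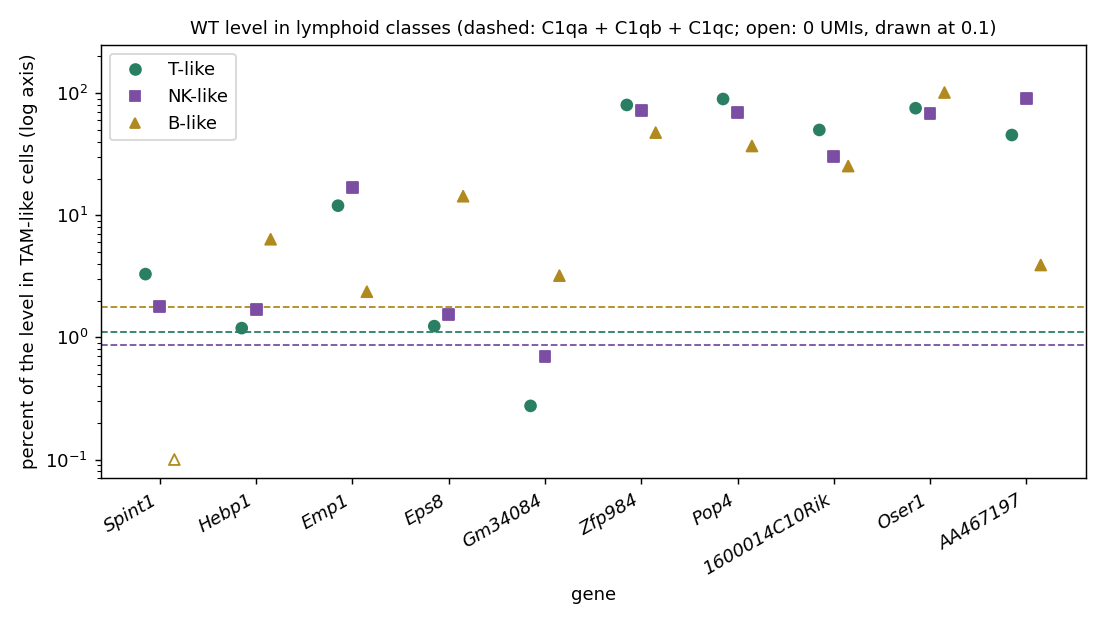
WT level of each gene in T-like, NK-like and B-like cells as a percentage of its level in TAM-like cells (log axis), with a dashed line at the summed C1q percentage of each class. Hebp1, Eps8 and Gm34084 lie near or under the lines in T-like cells, whereas Pop4 reaches 89.7%. Spint1 in B-like cells had 0 UMIs and is drawn open at 0.1.

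The sparser classes were described from pooled UMIs alone, with exact 95% intervals that cover counting error and not the spread between mice. In DC1-like cells Spint1 had 264 WT and 0 CaMKK2 KO UMIs, and in pDC-like (plasmacytoid dendritic) cells the CaMKK2 KO over WT ratio was 0.168 (0.0713 to 0.353). In ncMono-like (non-classical monocyte) cells it was 69.3 for Hebp1 (12.3 to 2755) and 29.6 for Emp1 (8.03 to 247), with all CaMKK2 KO mice above all WT mice. The WT side held only 1 Hebp1 UMI, in mouse 3, and 2 Emp1 UMIs, in mouse 4 (11.9 CPM). CaMKK2 KO mouse 3 also had only 2 Emp1 UMIs (23.0 CPM). AA467197 is given no ratio there, since 48 of its 49 WT UMIs came from WT mouse 3. 1600014C10Rik was 4.53 (3.18 to 6.65) in ncMono-like, 1.69 (1.26 to 2.25) in DC1-like, 2.13 (1.10 to 4.46) in mature DC-like and 1.13 (0.642 to 2.01) in pDC-like cells. Only the last of these intervals included 1. The mice overlapped for 1600014C10Rik in DC1-like and pDC-like cells. WT mouse 1 had no pDC-like cells. For Spint1 there, the other WT mice (28.3 to 98.0 CPM) were above all CaMKK2 KO mice, of which only mouse 3 had UMIs (24.4 CPM).

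Other genes close to the 10 were called more often than genes at large. Within 1 Mb of a member's start, 20 of 91 genes tested in TAM-like cells passed (edgeR, adjusted p under 0.05), or 22.0%, where 2.68% of all genes passed, and 12 of these were lower in CaMKK2 KO mice. Their median absolute log2 fold change was 0.32, against 0.18 over all genes. In T-like cells 7 of 59 passed (11.9%, 1.79% of all genes), in NK-like 6 of 45 (13.3%, 2.7%), in cMono-like 7 of 62 (11.3%, 1.84%), in DC2-like 7 of 34 (20.6%, 2.24%), in microglia-like 3 of 34 (8.82%, 1.35%) and in B-like cells 1 of 12 (8.33%, 4.44%). Adjacent genes are not independent and no set test was made. The counts left out the 10 genes but not genes overlapping them, such as Gm20707 with Zfp984. Genes with near-identical copies, such as Eif3j1 (below), were also kept. How reads were divided among such genes is uncertain. By region, TAM-like calls were 6 of 27 near Spint1, 6 of 17 near Zfp984, 4 of 9 near AA467197 and 0 of 11 near Oser1. In T-like cells all 5 calls within 0.5 Mb were near Gm34084 (1 of 2), Zfp984 (2 of 5) or AA467197 (2 of 4). Spint1 had 0 of 12 in that window. In NK-like cells the 2 calls within 0.5 Mb were near Zfp984 (2 of 5).

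In all, 3 neighbours were called in at least 4 of the classes. Gatm, the arginine:glycine amidinotransferase of creatine synthesis, starts 0.0425 Mb before AA467197 and was higher in CaMKK2 KO mice in 5 of 5 classes tested. Its TAM-like means were 389 ± 64.5 CPM for WT and 1173 ± 276 CPM for CaMKK2 KO mice (edgeR log2 fold change 1.59 ± 0.181 SE), the opposite direction to AA467197. Eif3j1, a subunit of translation initiation factor 3, starts 0.608 Mb before AA467197 and was lower in 6 of 6 classes tested, at 89.3 ± 6.52 and 18.4 ± 3.31 CPM in TAM-like cells. Fbxo6, an F-box protein that binds glycoproteins, lies 0.392 Mb from Zfp984 and was higher in 4 of 5 classes tested, at 37.1 ± 5.10 and 58.5 ± 8.71 CPM in TAM-like cells.

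**Figure D4:**
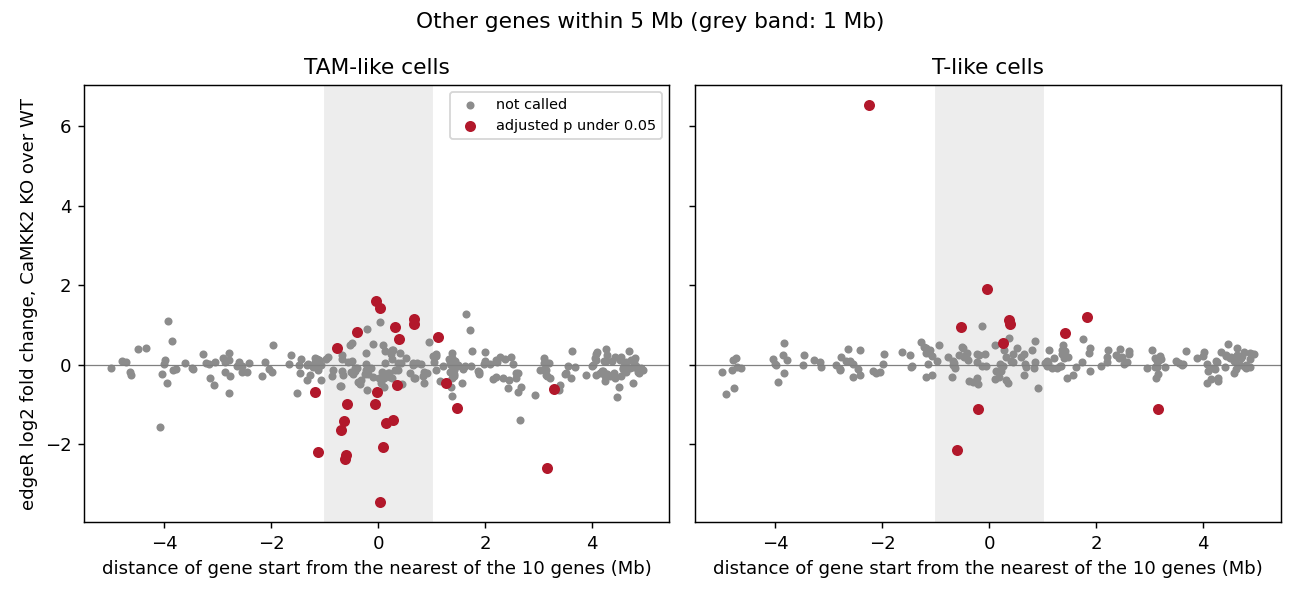
edgeR log2 fold change (CaMKK2 KO over WT) of every other gene tested within 5 Mb of the 10 genes, against the distance of its start from the nearest of them, in TAM-like and T-like cells. Red points passed an adjusted p of 0.05, and 20 of the 91 in the grey 1 Mb band of TAM-like cells are red.

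Few genes behaved like 1600014C10Rik. Of 11272 genes with at least 200 UMIs over all cells, 12 (0.106%) separated the mice in one direction in all 7 classes, 11 of them outside the set, and 1.3% did so in at least 4 classes. Ranked by their smallest log2 ratio over the classes, the first was Gm8797, higher in CaMKK2 KO mice by 4.17 or more, with class means of 5.30 to 8.32 CPM in WT and 133 to 190 CPM in CaMKK2 KO mice. Eif3j2, whose level was 0.609 to 3.11 CPM in WT and 27.3 to 57.0 CPM in CaMKK2 KO mice, and Eif3j1 moved in opposite directions and are near-identical copies, so their division of reads is uncertain. Ifi44l, an interferon-induced gene, had 0 UMIs in all WT classes and 4.03 to 335 CPM in CaMKK2 KO classes, and Ifi44 (smallest log2 ratio 1.66), Cxcl13 (2.68), a B cell chemokine, and Psmb9 (0.41), an immunoproteasome subunit, were also higher. The lowest Ifi44l level, in CaMKK2 KO T-like cells, rested on 38 UMIs, and Cxcl13 in DC2-like cells on 15 UMIs over both genotypes. CaMKK2 KO means were 335 CPM for Ifi44l in cMono-like and 2849 CPM for Cxcl13 in microglia-like cells. The part of free RNA in the low values was not tested. Gm47283 (2.24) and Apoe (1.99), a lipoprotein of macrophages, were lower by at least the log2 value given. Gm47283 is annotated on chromosome Y although the mice were female, and the source of its reads was not tested. Its CaMKK2 KO mice spread widely, from 0.278 to 49.1 CPM in T-like cells, against 147 to 215 CPM in WT. Apoe in T-like cells was at 347 ± 20.8 CPM in WT against 32742 ± 4326 CPM in TAM-like cells, about the C1q share, so its T-like value is read as background. Apoe was likewise at 314 ± 34.3 CPM in WT NK-like and 265 ± 97.4 CPM in WT DC2-like cells. These were near and under the C1q share there (0.872% and 1.28%) and are also read as background. In WT B-like cells it was at 1871 ± 607 CPM, which is above the C1q share there (1.78%). Eif3j1 was the one of these within 5 Mb of the 10 genes.

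Genes listed with the 10 by function, or by name and place for the zinc finger genes of Zfp984, were counted by list. Of 75 genes on 9 lists, 45 were tested in at least 1 class and 8 were called in at least 1, where 6.2% of all 9844 genes tested were. No gene was called among the Spint1 targets and kin (4 of 10 tested), the Emp1 family (2 of 4) or the Eps8 partners (5 of 8). None was called among Pank2, Pla2g6, Coasy, Fa2h and Wdr45, listed with 1600014C10Rik (3 of 5 tested). The heme and formyl peptide list of Hebp1 had 3 calls among 5 tested genes. Fpr2, a formyl peptide receptor, was higher in CaMKK2 KO TAM-like cells (31.7 ± 13.4 and 118 ± 48.6 CPM), Blvrb, a biliverdin reductase, higher in cMono-like cells (47.2 to 72.6 and 99.4 to 111 CPM), and Hmox1, heme oxygenase 1, lower in microglia-like cells (244 ± 162 and 55.4 ± 22.2 CPM), where the mice overlapped. Of the RNase P and MRP list, 1 of 9 tested genes passed: Pop5, 39.4 ± 2.68 and 26.1 ± 3.77 CPM in TAM-like cells, opposite to Pop4. Ndufa4, 1 of 6 tested in the complex IV list, was higher in DC2-like cells (128 ± 25.1 and 217 ± 27.7 CPM). Prdx1, a peroxiredoxin, was higher in T-like cells (257 ± 26.9 and 357 ± 26.6 CPM), and with Hmox1 made up the 2 calls among 8 genes listed with Oser1. Of 4 zinc finger genes tested with Zfp984, Zfp991 was lower in TAM-like cells (13.6 ± 1.88 and 2.62 ± 0.884 CPM). Zfp990 was higher in T-like (0.244 ± 0.489 and 31.5 ± 5.93 CPM) and NK-like cells, where WT mice had 0 UMIs. How reads were divided among these related genes and Zfp984 is uncertain. Errors in this paragraph are SD of 4 mice, WT first.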

How the data were processed

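The authors demultiplexed with bcl2fastq 2.20 and aligned to mm10 with Cell Ranger 4.0.0 and STAR 2.7.5c, per the labels. The deposited matrices give whole UMI counts of genes and hashtags for each barcode, without normalization. Mice were assigned with HTODemux at a quantile of 0.99, which left 5974 WT and 6696 CaMKK2 KO single cells. Outliers by 3 median absolute deviations and cells with high Scrublet scores were removed, and 42 barcodes occurred in both libraries. A class needed at least 3 markers detected and a lead of 0.1 in the share of its markers over the next class, a rule set after the data had been seen, and 70.3% of gated cells fell in a cluster of that class. UMIs were summed per mouse and class, genes with at least 200 UMIs were tested with the edgeR quasi-likelihood test on total counts, with mouse as a term where classes were compared, and p-values were adjusted by Benjamini-Hochberg over all genes tested. A class by genotype test was also made, but its p-values are not given, because the genes were chosen on the differences it compares. Scripts were tested on simulated data. CPM used a pseudocount of 1 for log2 ratios. Intervals are exact and cover counting error only.

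The 10 genes, the gene lists and the markers were chosen with earlier results of these data known. All 10 genes were named, with up to 10 other genes of the largest smallest log2 ratio over the classes, neighbours within 1 Mb called in at least 4 of the classes, and list genes called in any class. One gene that this rule names is not reported here. Where a sum is compared, fewer RNA molecules per cell and fewer expressing cells of a class were not looked at separately. Nothing shows that hashtags mark separate experiments, so p-values measure the spread between these mice. Markers of endothelial cells summed to 18.8 to 44.0 CPM in WT and 46.5 to 59.5 CPM in CaMKK2 KO mice over all cells, and their part in the results was not tested. Alternatives covered cell filters, gates, scaling, DESeq2, count filters, windows, subtraction of free RNA and leaving out each mouse.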

Additional observations from a re-analysis of the deposited data

Results flagged for a closer look

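Of 84 groups of 4 mice with a gene at 200 UMIs or more over both genotypes, 8 had 1 mouse far from the other 3 (9.52%). Chance also flags some groups, and its share was not measured. It can differ in groups near 0, such as Spint1 in CaMKK2 KO cMono-like cells, with 1 UMI in all. In cMono-like cells these were Spint1 in CaMKK2 KO mouse 1 (0.347 CPM, the others at 0), Hebp1 in CaMKK2 KO mouse 3 (233 CPM against 168 to 177), Pop4 in the same mouse (137 CPM against 203 to 217) and Gm34084 in WT mouse 1 (10.3 CPM against 50.4 to 57.5). Gm34084 in DC2-like cells of CaMKK2 KO mouse 2 was 1.81 CPM, which is 1 UMI, with the others at 0. In NK-like cells 1600014C10Rik in WT mouse 2 was 28.0 CPM against 15.1 to 16.7, and Oser1 in CaMKK2 KO mouse 2 was 44.8 CPM against 39.0 to 39.9. Oser1 in TAM-like cells of CaMKK2 KO mouse 1 was 58.2 CPM against 54.3 to 54.5.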

How the results depend on the processing

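The 42 log2 ratios of a gene in a class were recomputed under 672 combinations with an alternative, and 671 had the sign of the reported value. The exception was AA467197 in T-like cells, whose mice overlapped, at 0.02 without WT replicate 2. In 661 the value moved by less than the spread between mice. The other 11 were 9 ratios with classes from clusters, such as Pop4 in TAM-like cells at 1.24, and 2 ratios of Oser1. Oser1 in TAM-like cells was at 0.59 with TMM scaling and 0.58 with DESeq2 size factors. With classes from clusters it was 0.26 there, against 0.50 as reported. Without 1 mouse, the count of genes whose mice did not overlap was 7 to 8 in DC2-like cells and did not move in the other classes. With a stricter gate the count was 4 in NK-like, 3 in microglia-like and 8 in TAM-like cells. Classes from clusters gave 8 in TAM-like and 8 in DC2-like cells. The mean CPM of cells gave 4 in NK-like and 3 in microglia-like cells.

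For the lymphoid against myeloid level 7 to 8 passed, and Pop4 lost its call without WT replicate 1 (0.0992), 2 (0.147) or 4 (0.131). The cause was not tested.

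Counts of called genes were the least stable. Without 1 mouse the genes called between genotypes ranged from 37 to 186 in T-like (128 with all mice), 78 to 804 in NK-like (170), 1 to 134 in B-like (49), 22 to 67 in microglia-like (57), 98 to 455 in TAM-like (249), 44 to 196 in cMono-like (130) and 29 to 369 in DC2-like cells (93). The highest count was without CaMKK2 KO replicate 3 in 6 of the 7 classes, T-like cells excepted. With no filter on low counts, 570 genes were called in T-like, 694 in NK-like, 261 in B-like, 329 in microglia-like, 515 in TAM-like, 317 in cMono-like and 465 in DC2-like cells. DESeq2 called 636 in TAM-like, 298 in cMono-like and 162 in DC2-like cells.

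Neighbours within 1 Mb called without 1 mouse were 3 to 10 in T-like, 2 to 13 in NK-like, 0 to 3 in B-like, 2 to 3 in microglia-like, 10 to 23 in TAM-like, 4 to 8 in cMono-like and 3 to 8 in DC2-like cells. With no count filter they were 19 in T-like, 22 in NK-like, 5 in B-like, 9 in microglia-like, 31 in TAM-like, 19 in cMono-like and 12 in DC2-like cells. DESeq2 gave 2 in B-like and 12 in cMono-like cells. A window of 0.5 Mb gave 2 in NK-like, 1 in microglia-like, 12 in TAM-like and 4 in DC2-like cells, and one of 5 Mb gave 11 in T-like, 18 in NK-like and 5 in microglia-like cells.

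The Camkk2 difference ranged from -15.5 to -11.0 CPM without 1 mouse. Depth limited B-like cells, where no member had 200 UMIs. No paired analysis was possible because the labels give the mice of the 2 genotypes no shared replicate numbers; comparisons between classes had mouse as a term.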
